A study of Mus musculus with 7 samples.

Results

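The lysosome is the acidic compartment in which microglia, the resident phagocytes of the brain, break down material they have taken up. Soluble hydrolases cut proteins, sugars and lipids inside it, membrane proteins line and protect it, and a proton pump, the V-type ATPase, acidifies it. Tfeb and Tfe3 are transcription factors known to switch on many lysosomal genes by binding E-box sequences near their start sites. The expression of 43 lysosomal genes was examined: 12 proteases, 9 glycosidases, 8 genes of lipid breakdown and transport with progranulin, 7 membrane proteins, 5 proton pump subunits and 2 transcription factors. They were chosen by symbol from known lysosomal genes. The rule uses no measured value, but the list was drawn up with earlier results of these data known. All 43 had a row among the 24537 genes of the table, and all 43 were among the 13028 genes that reached 1 FPKM in at least 2 of 7 libraries. FPKM scales the fragments of a gene to its transcript length and to sequencing depth, so levels of different genes can be compared on it.

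The libraries were made by ultra-low-input RNA sequencing from microglia of C57BL/6 mice bearing the implanted mouse glioblastoma model 005, sorted at day 35 for intermediate CD45 and for CX3CR1. There were 2 libraries from control IgG treatment, 2 labelled as treated with an antibody to the T cell checkpoint receptor CTLA4, and 3 from anti-CTLA4 combined with CD4 depletion. All mice carried the tumour, and no tumour-free group was analysed here. Nothing in the labels ties a library to a separate animal, so the p-values reflect library-to-library spread that may be no more than technical.

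Some facts about the libraries touch every value below. Implied depth was 84200000 to 108000000 reads per library. The columns taken as anti-CTLA4 by name carry sheet numbers 29 and 30, which the header's command assigns to interferon-gamma receptor knockout libraries, whereas the sample descriptions give 10 and 11. These columns are therefore called the libraries labelled anti-CTLA4, and each direction against them depends on that name. They held Ifngr1 at 204 and 271 FPKM against 143 and 107 in IgG, which does not settle the name. The microglial label was checked against 15 homeostatic microglia markers, all of them detected. They summed to 3313 and 2463 FPKM in IgG, 4014 and 6809 in the libraries labelled anti-CTLA4, and 1894, 3682 and 3274 with CD4 depletion. Markers of oligodendrocyte precursor-like and tumour cells, 15 genes, summed to 752 and 1064 FPKM in IgG, 109 and 42.5 in the libraries labelled anti-CTLA4, and 191, 660 and 469 with CD4 depletion, with 14 of the 15 lower in the libraries labelled anti-CTLA4 against IgG. A list of 20 pan-myeloid genes summed to 2414 and 2618, then 6062 and 6164, then 3862, 2766 and 3070 FPKM in the same order. Endothelial and mural markers summed to 23.2 and 28.4, then 304 and 165, then 95.1, 67.3 and 51.1 FPKM, and erythroid markers to 328 and 47.4, then 980 and 938, then 166, 576 and 216 FPKM. No gene of the marker lists was listed at 0 in all libraries of a group. CD4 depletion replicate 1 stood apart: its monocyte and recruited macrophage markers summed to 1911 FPKM against 41.8 to 148 in the other 6 libraries, and its neutrophil markers to 528 FPKM against 35.7 to 178. Y-linked genes summed to 9.53 to 14.5 FPKM in the depletion libraries and 0.514 to 3.35 in the rest. Xist, the X inactivation gene, did not mirror this. It was at 2.16 and 2.48 FPKM in IgG, 3.85 and 6.08 in the libraries labelled anti-CTLA4, and 3.42, 2.55 and 2.42 with CD4 depletion. Its depletion libraries thus overlapped IgG and lay below both libraries labelled anti-CTLA4, a log2 change of -0.64 that was not called. The sex of the mice was not tested, and a difference in sex cannot be told apart from CD4 depletion.

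In the libraries labelled anti-CTLA4, 26 of the 43 lysosomal genes were higher than in IgG and 0 were lower at a limma adjusted p below 0.05, while 17 did not pass. Among all tested genes 9.29% were higher and 28.8% lower, so the lysosomal genes were called higher more often than genes at large in these libraries. These calls are on the deposited scaling, and they were lost when libraries were scaled to myeloid marker lists, as described further on. The median log2 change of the 43 genes was 0.80, with a range of -0.52 to 1.58, against a median of -0.31 over all tested genes. Libraries of both groups did not overlap for 37 of the 43, of which 34 were higher and 3 lower. Over all tested genes the libraries did not overlap for 76.9%, 22.8% higher and 54.1% lower. With CD4 depletion added, 22 of the 43 were lower than under the anti-CTLA4 label alone and 0 were higher, against 6.59% lower and 22.8% higher among all tested genes. The median log2 change there was -0.63 against 0.27 over all tested genes, and both comparisons share the libraries labelled anti-CTLA4. Libraries did not overlap for 32 of the 43 (31 lower, 1 higher), against 60.5% of all tested genes (15.7% lower, 44.7% higher). In bulk RNA, a different number of cells of a type and a different amount of RNA per cell cannot be told apart. Other lists moved with the lysosomal genes. Against IgG the homeostatic microglia markers had a median log2 change of 0.83, with 15 of 15 positive and 3 called higher, and 18 of 20 pan-myeloid genes were called higher, with a median of 1.22. Of the tested endothelial and mural markers 4 of 8 were called higher, and of the erythroid markers 4 of 5. The part of the tumour-cell, microglial, pan-myeloid, monocyte, neutrophil, endothelial and erythroid differences in the lysosomal results was not tested.

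**Figure D1:**
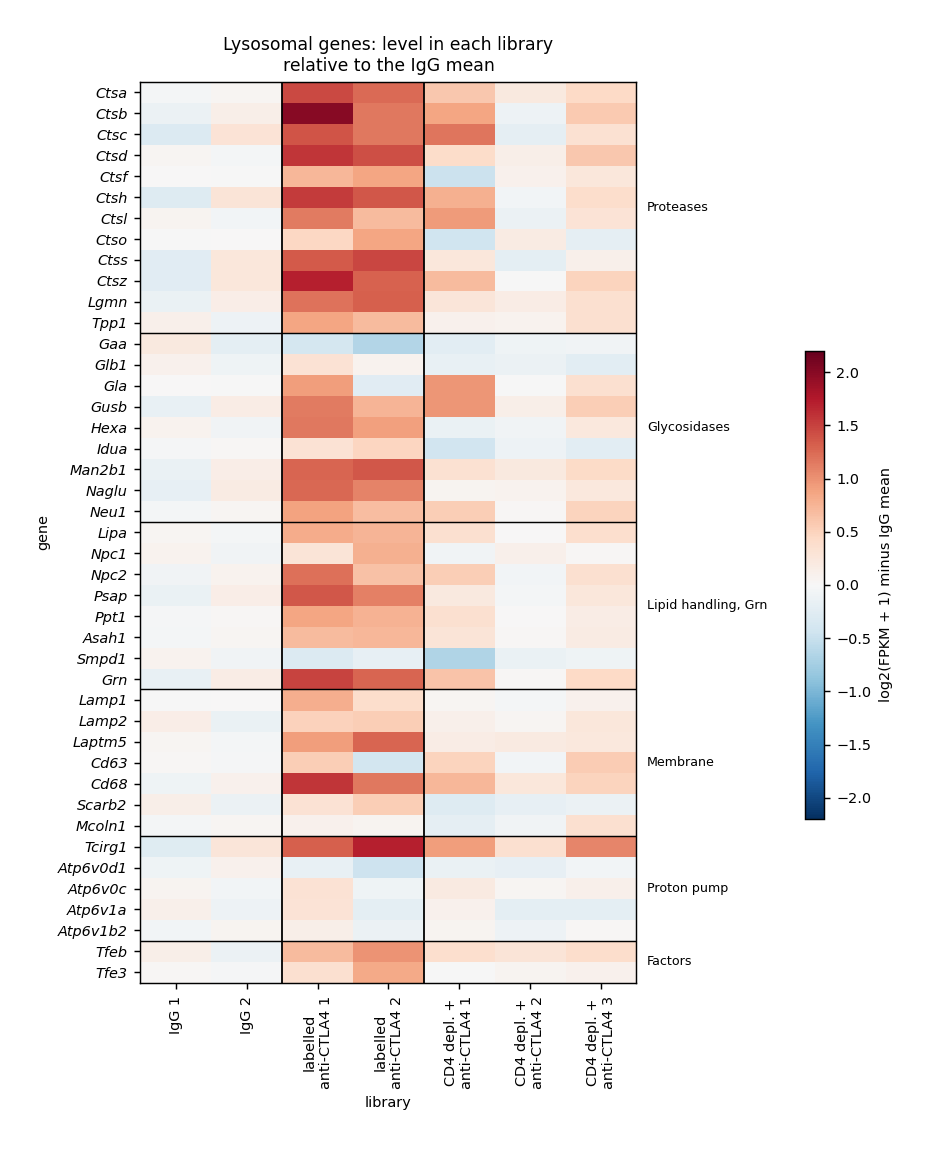
Level of each of the 43 lysosomal genes (rows, by role) in each of the 7 libraries (columns), as log2(FPKM + 1) minus the mean of the 2 IgG libraries. Most hydrolases are red in both libraries labelled anti-CTLA4 and paler with CD4 depletion, while Gaa, Smpd1, Mcoln1 and 4 of the 5 proton pump genes are near the IgG level or below it.

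Together the 43 genes made up 3.13% and 3.45% of all FPKM in the IgG libraries. Their share was 7.46% and 7.18% in the libraries labelled anti-CTLA4 and 4.24%, 3.34% and 4.06% with CD4 depletion. A few genes carried most of this signal. Ctsd, Ctss, Psap and Laptm5 together made up 52.3% to 62.6% of the summed lysosomal FPKM in every library. The proteases took 60.4% and 62.7% of the sum in IgG, 68.5% and 69.2% in the libraries labelled anti-CTLA4, and 63.9%, 61.0% and 63.6% with CD4 depletion. The 5 proton pump genes took 2.33% and 2.22% in IgG and 1.15% in each library labelled anti-CTLA4, and 2.01%, 2.22% and 2.03% with depletion.

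The counts by role given from here on are to be read against the shares of all tested genes. These were 9.29% higher and 28.8% lower against IgG, and 22.8% higher and 6.59% lower with CD4 depletion. A role of few genes, such as the proton pump, allows little reading of its count. The proteases moved largely together. Of 12, 10 rose in the libraries labelled anti-CTLA4 against IgG, with a median log2 change of 1.31, and 9 were lower with CD4 depletion, with a median of -0.96. Ctsd encodes cathepsin D, the main aspartic protease of the lysosome, and lies at chr7:142375916-142387870 (mm10). It was measured at 2100 and 1979 FPKM in IgG, 6088 and 5439 in the libraries labelled anti-CTLA4, and 2683, 2241 and 3069 with CD4 depletion. No library of the labelled anti-CTLA4 group overlapped the others. Ctsd rose 2.82-fold on the log2(FPKM + 1) scale against IgG (log2 change 1.50 ± 0.38 SE, limma adjusted p = 0.0226) and fell by 1.12 with depletion (SE 0.35, limma adjusted p = 0.0478). Both calls were lost with quantile normalization, where the change against IgG was 0.52 (limma adjusted p = 0.319), and with no filter on low genes, where it was 1.50 ± 1.16 (limma adjusted p = 0.405).

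Ctss, cathepsin S, is a cysteine protease that stays active near neutral pH and trims the invariant chain in antigen-presenting cells. Its levels were 1496 and 2119 FPKM in IgG, 4521 and 4926 in the libraries labelled anti-CTLA4, and 2121, 1530 and 1934 with CD4 depletion. The change was 1.41 ± 0.38 against IgG (limma adjusted p = 0.0262) and -1.35 ± 0.35 with depletion (limma adjusted p = 0.0283). Ctsb, the cysteine protease cathepsin B, was at 297 and 356, then 1313 and 725, then 598, 300 and 485 FPKM in that order. Its 2 labelled anti-CTLA4 libraries differed from each other more than those of the other cathepsins named here. Ctsb rose by 1.58 ± 0.41 (limma adjusted p = 0.0231), and its change of -1.14 with depletion did not pass (limma adjusted p = 0.0546).

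Ctsz, a carboxypeptidase, was at 314 and 442, then 1227 and 914, then 607, 369 and 527 FPKM. It rose by 1.51 ± 0.33 and then fell by 1.11 (limma adjusted p = 0.0151 and 0.0333). Lgmn, the asparaginyl endopeptidase that processes several cathepsins into their mature forms, was at 383 and 469, then 976 and 1053, then 511, 472 and 538 FPKM. It rose by 1.26 ± 0.23 and fell by 1.00 ± 0.21 (limma adjusted p = 0.0111 and 0.018).

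Ctsa is a carboxypeptidase that also protects the glycosidases Neu1 and Glb1 from breakdown. Its 2 IgG libraries, at 126 and 134 FPKM, lay far below 358 and 308 in the libraries labelled anti-CTLA4, and the depletion libraries, at 196, 152 and 177, lay between. Ctsa rose by 1.35 ± 0.20 and fell by 0.93 ± 0.18 (limma adjusted p = 0.00936 and 0.0158). Its interval shares 1515 bases with Pltp on the other strand. Since both strands were counted, reads there cannot be assigned, and Pltp itself was at 69.5 and 47.9 FPKM in the libraries labelled anti-CTLA4 against 20.7 and 16.0 in IgG. Tpp1, a tripeptidyl peptidase, was at 56.6 and 48.5, then 96.8 and 85.2, then 56.3, 55.0 and 67.5 FPKM. It rose by 0.78 and fell by 0.61 (limma adjusted p = 0.0162 and 0.0312). Ctsl, cathepsin L, passed in neither comparison: it was at 136 and 125, then 290 and 211, then 250, 119 and 161 FPKM (limma adjusted p = 0.0692 and 0.205). Its highest depletion library was replicate 1, the one rich in monocyte markers.

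Among 9 glycosidases, which remove sugars from glycoproteins, glycolipids and glycosaminoglycans, 5 rose in the libraries labelled anti-CTLA4 and 4 fell with CD4 depletion. Hexa, the alpha subunit of beta-hexosaminidase, was at 185 and 166 FPKM in IgG, 393 and 329 in the libraries labelled anti-CTLA4, and 158, 167 and 205 with depletion. Depletion libraries lay around the IgG level. Hexa rose by 1.03 ± 0.21 and fell by 1.03 ± 0.19 (limma adjusted p = 0.0126 and 0.0147). Man2b1, the lysosomal alpha-mannosidase, was at 72.0 and 89.1, then 196 and 209, then 101, 93.0 and 108 FPKM. It rose by 1.33 ± 0.18 and fell by 1.00 ± 0.16 (limma adjusted p = 0.00936 and 0.0126). Naglu, which acts in heparan sulfate breakdown, was at 28.1 and 36.3, then 77.8 and 69.5, then 33.3, 33.6 and 37.8 FPKM. It rose by 1.18 ± 0.18 and fell by 1.06 ± 0.16 (limma adjusted p = 0.00936 and 0.0124).

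Gaa, the acid alpha-glucosidase that degrades glycogen, went the other way in its values. It was at 105 and 77.8 FPKM in IgG, 68.7 and 57.0 in the libraries labelled anti-CTLA4, and 76.2, 84.6 and 85.8 with CD4 depletion. Its 2 labelled anti-CTLA4 libraries were the lowest of the 7, but neither the change of -0.52 ± 0.20 nor that of 0.39 ± 0.18 passed (limma adjusted p = 0.0711 and 0.134). The ratio of Hexa to Gaa within a library is not affected by a single scaling factor per library, though quantile normalization does change it. As deposited it was 1.77 and 2.14 in IgG, 5.72 and 5.76 in the libraries labelled anti-CTLA4, and 2.07, 1.97 and 2.39 with depletion.

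Of the 8 genes of lipid handling with progranulin, 6 rose in the libraries labelled anti-CTLA4 and 5 fell with CD4 depletion. Psap, the precursor of the saposins that present sphingolipids to their hydrolases, was at 608 and 744 FPKM, then 1727 and 1459, then 779, 651 and 797. It rose by 1.24 ± 0.27 and fell by 1.10 ± 0.25 (limma adjusted p = 0.0151 and 0.0209). Grn, progranulin, whose loss causes a lysosomal storage disorder, was at 339 and 425, then 1068 and 924, then 590, 386 and 514 FPKM. It rose by 1.39 ± 0.28 and fell by 1.02 ± 0.26 (limma adjusted p = 0.0127 and 0.0277). Ppt1, which removes palmitate from proteins, was at 56.7 and 58.2, then 105 and 98.7, then 73.3, 57.8 and 64.5 FPKM. It rose by 0.82 ± 0.17 and fell by 0.64 ± 0.15 (limma adjusted p = 0.0126 and 0.0231).

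Lipa, the acid lipase of cholesteryl esters, was at 21.7 and 20.2, then 37.5 and 35.9, then 26.9, 20.9 and 27.2 FPKM. It rose by 0.78 and fell by 0.54 (limma adjusted p = 0.0153 and 0.0395). Npc2, which passes cholesterol on for export, was at 57.8 and 64.9, then 143 and 96.5, then 89.9, 58.8 and 78.3 FPKM. Npc2 rose by 0.93 (limma adjusted p = 0.03), and its change of -0.65 with depletion did not pass (limma adjusted p = 0.0756). Smpd1, acid sphingomyelinase, was picked out after its values were seen, because it did not follow the group. It was at 30.6 and 27.4, then 23.2 and 25.6, then 18.1, 26.0 and 26.9 FPKM, and neither change passed (limma adjusted p = 0.391 and 0.828).

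Membrane proteins differed among themselves: 2 of 7, Laptm5 and Cd68, rose in the libraries labelled anti-CTLA4, and 3 of 7 fell with CD4 depletion. Laptm5, a membrane protein of lysosomes in blood-lineage cells, was at 465 and 441 FPKM, then 856 and 1101, then 509, 518 and 530. It rose by 1.10 ± 0.23 and fell by 0.90 ± 0.21 (limma adjusted p = 0.0139 and 0.0234). Cd68, the macrophage member of the LAMP family, was at 168 and 191, then 537 and 402, then 299, 214 and 252 FPKM. Cd68 rose by 1.37 ± 0.24 and fell by 0.88 ± 0.22 (limma adjusted p = 0.0107 and 0.0281).

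The general lysosomal membrane proteins Lamp1 and Lamp2 changed less in value. Lamp1 was at 378 and 379, then 661 and 493, then 390, 365 and 406 FPKM, a change of 0.59 against IgG (limma adjusted p = 0.0732) and -0.56 with depletion (limma adjusted p = 0.0749). Lamp2 was at 152 and 123, then 194 and 198, then 148, 140 and 163 FPKM (limma adjusted p = 0.0579 and 0.114). Both had labelled anti-CTLA4 libraries above all others, without passing. Cd63, a tetraspanin of late endosomes, lysosomes and exosomes, was at 207 and 202, then 298 and 154, then 288, 196 and 301 FPKM. Its 2 labelled anti-CTLA4 libraries lay on either side of IgG. Mcoln1, the cation channel that releases calcium from lysosomes, stayed between 21.8 and 32.2 FPKM in all 7 libraries, with a change of 0.08 against IgG whose 95% interval ran from -0.39 to 0.54.

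The proton pump genes had a median log2 change of 0.04 against IgG and -0.01 with CD4 depletion, and 1 of 5 passed, in the first comparison. That gene was Tcirg1, the a3 subunit of the membrane sector, at chr19:3896050-3907133 (mm10), which is known for acid secretion by osteoclasts. It was at 20.1 and 29.8 FPKM in IgG, 62.7 and 82.4 in the libraries labelled anti-CTLA4, and 47.2, 31.6 and 53.0 with depletion. All depletion libraries lay between the other groups. Tcirg1 rose by 1.52 ± 0.30 (limma adjusted p = 0.0119), and its change of -0.73 ± 0.27 with depletion did not pass (limma adjusted p = 0.0763).

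The other 4 pump subunits did not pass in either comparison. Atp6v1b2, the B2 subunit of the ATP-hydrolysing sector, was at 59.6 and 64.3 FPKM in IgG, 67.6 and 56.8 in the libraries labelled anti-CTLA4, and 64.4, 57.2 and 62.7 with CD4 depletion. Its log2 change against IgG was 0.0020 with a 95% interval of -0.37 to 0.38. Atp6v1a, the catalytic A subunit, was at 20.01 and 17.1, then 23.1 and 15.8, then 19.9, 15.8 and 15.8 FPKM (interval -0.47 to 0.56). Atp6v0c, the proton-carrying ring subunit, was at 55.4 and 51.5, then 67.0 and 49.8, then 61.1, 55.1 and 57.5 FPKM. It is uncertain, since a pseudogene copy, Atp6v0c-ps2, covers the same interval on the same strand. Atp6v0d1, which couples both sectors, was at 43.2 and 49.2, then 41.3 and 33.2, then 41.7, 40.6 and 44.1 FPKM, a change of -0.31 (limma adjusted p = 0.169). Atp6v1b2 and Atp6v0d1 were named after their values were seen.

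**Figure D2:**
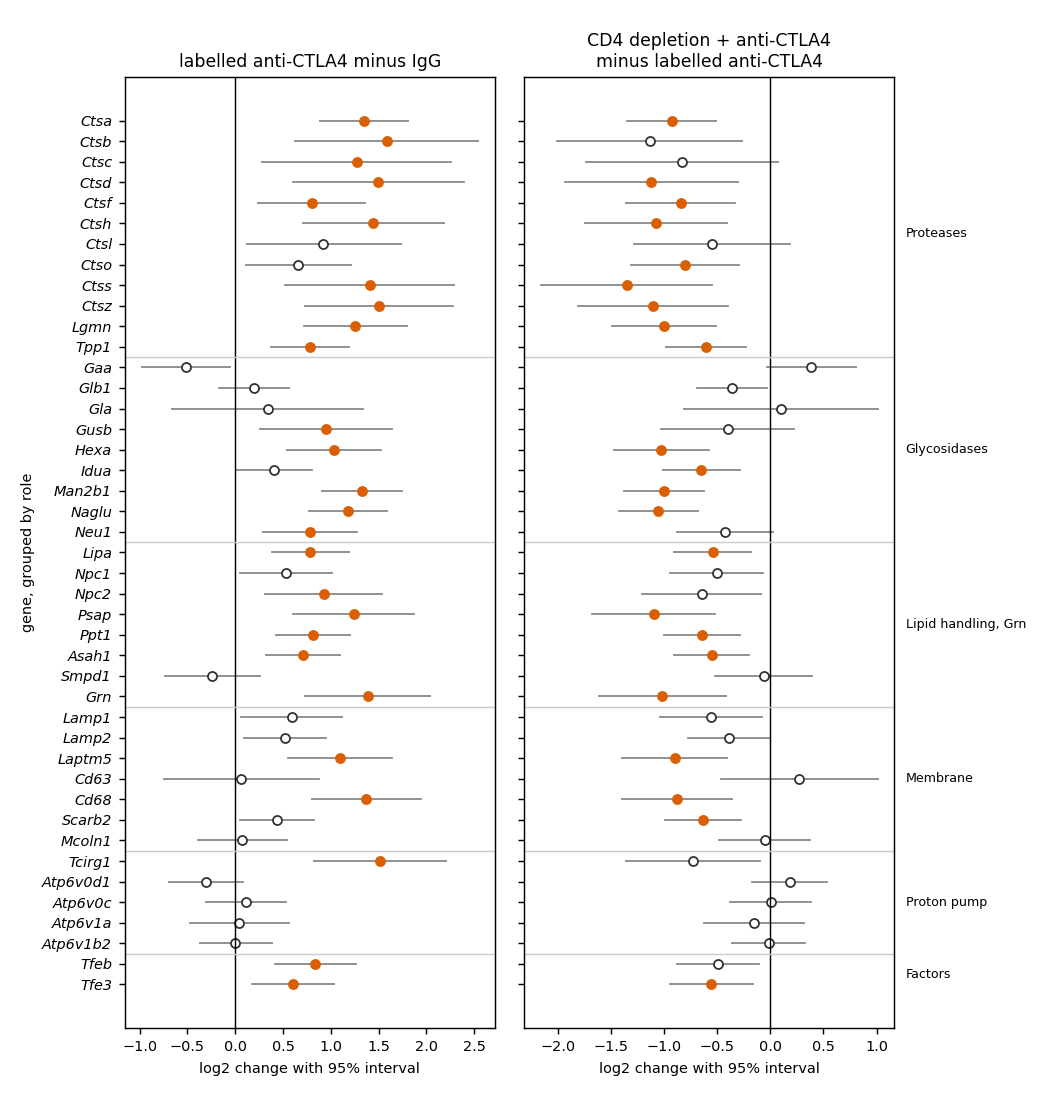
Log2 change of each lysosomal gene (rows, by role) with its 95% interval, for the libraries labelled anti-CTLA4 minus IgG (left) and CD4 depletion with anti-CTLA4 minus the libraries labelled anti-CTLA4 (right). On the deposited scaling, filled points passed a limma adjusted p of 0.05: 26 higher on the left and 22 lower on the right, with 1 proton pump gene, Tcirg1, among them.

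Some ratios of lysosomal genes within a library separated the groups and others did not. Ctsd to Atp6v1b2 was 35.3 and 30.8 in IgG, 90.0 and 95.8 in the libraries labelled anti-CTLA4, and 41.7, 39.2 and 49.0 with CD4 depletion. Tcirg1 to Atp6v0d1 was 0.466 and 0.604, then 1.52 and 2.48, then 1.13, 0.778 and 1.20. Cd68 to Cd63 was 0.808 and 0.949, then 1.80 and 2.62, then 1.04, 1.09 and 0.837. In each of these the labelled anti-CTLA4 libraries lay above all others. Other pairs overlapped: Laptm5 to Lamp1 was 1.23 and 1.16, then 1.30 and 2.23, then 1.31, 1.42 and 1.31, and Ctss to Ctsl was 11.0 and 17.0, then 15.6 and 23.3, with 8.48 to 12.9 under depletion. Set against Csf1r, a receptor of microglia and macrophages, the picture differed: Ctsd to Csf1r was 3.06 and 3.29, then 4.82 and 3.06, then 4.66, 2.80 and 4.18, and the groups overlapped. Atp6v1b2 to Csf1r was 0.0867 and 0.107, then 0.0536 and 0.0320, then 0.112, 0.0713 and 0.0854, lowest in the libraries labelled anti-CTLA4. The pairs were chosen after the values were seen and carry no test.

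**Figure D3:**
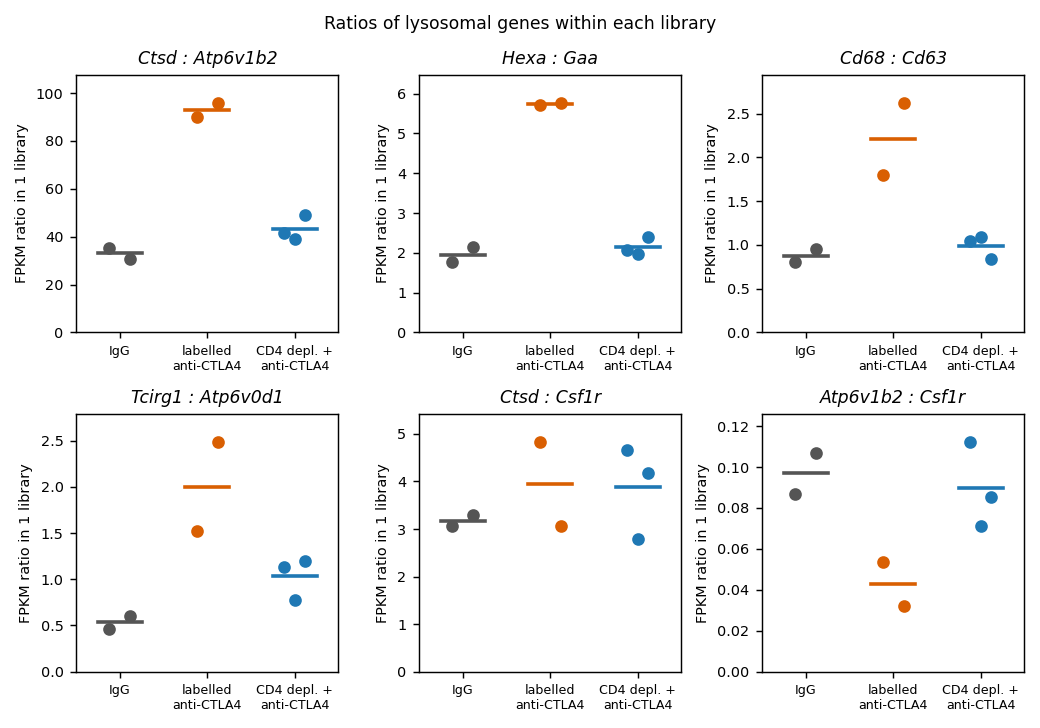
Ratio of FPKM of 2 genes within each library (points) with the group mean (lines), for IgG (n = 2), labelled anti-CTLA4 (n = 2) and CD4 depletion with anti-CTLA4 (n = 3). Ctsd to Atp6v1b2 is 90.0 and 95.8 in the libraries labelled anti-CTLA4 against at most 49.0 elsewhere, while Ctsd to Csf1r overlaps between groups.

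The calls depended on what the libraries were scaled to. Scaled to the median of gene ratios, 34 of 43 genes rose and 0 fell in the libraries labelled anti-CTLA4 (all tested genes: 16.4% and 15.7%), and 30 fell and 0 rose with CD4 depletion (12.6% and 11.2%). With quantile normalization, 21 rose against IgG (14.8%) and 16 fell with depletion (11.3%). The 4 most abundant genes were not among them: against IgG, Ctsd had a change of 0.52, Ctss 0.33, Psap 0.41 and Laptm5 0.33 (limma adjusted p = 0.319, 0.522, 0.218 and 0.30). Lgmn, Ctsz, Grn and Ctsb also lost their call against IgG, with changes of 0.44, 0.74, 0.66 and 1.05. Scaled to the 15 homeostatic microglia markers, 0 of 43 were higher or lower against IgG (all tested genes: 0.645% and 38.1%), and the median was -0.04. With depletion, 1 was then higher, Gaa, and 0 lower (50.3% and 0.752%). Scaled to the 20 pan-myeloid genes, 0 were higher and 9 lower against IgG (all tested genes: 0.537% and 72.4%). Those 9 were Atp6v0c, Atp6v0d1, Atp6v1a, Atp6v1b2, Cd63, Gaa, Glb1, Mcoln1 and Smpd1. With depletion, 6 were then higher and 0 lower (61.5% and 0.683%). The all-gene median against IgG moved from -0.31 to -0.95 with the first list and -1.22 with the second. The gap between the protease and proton pump medians was 1.27 against IgG and -0.95 with depletion. A single factor per library moves both medians nearly alike, so those scalings hardly bear on the gap. Quantile normalization, which can change it, gave 0.61 and -0.41. Leaving out an IgG or a labelled anti-CTLA4 library gave 0.98 to 1.37 against IgG. Which scaling gives the level per cell was not tested.

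**Figure D4:**
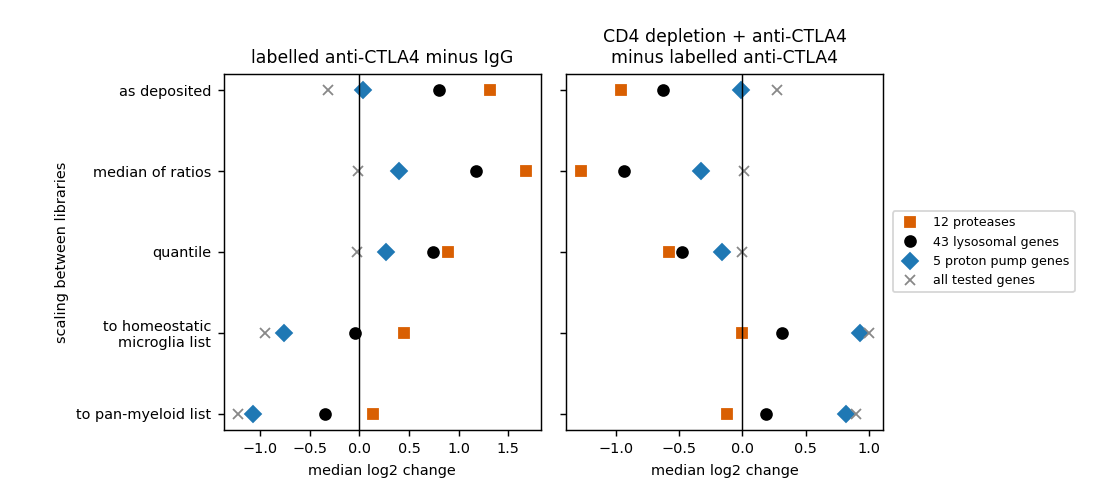
Median log2 change (horizontal axis) of 12 proteases, all 43 lysosomal genes, 5 proton pump genes and all tested genes under 5 scalings between libraries (rows), in 2 comparisons. The 43-gene median against IgG goes from 1.17 with median-of-ratios scaling to -0.35 with pan-myeloid scaling, and the protease median against IgG is 0.89 with quantile normalization against 1.31 as deposited. A single factor per library moves all symbols of a panel nearly alike, which 4 of the 5 rows share.

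On the deposited scaling both transcription factors rose in the libraries labelled anti-CTLA4, though with scaling to pan-myeloid genes their values were -0.22 for Tfeb and -0.53 for Tfe3. Tfeb was at 6.92 and 5.58 FPKM in IgG, 10.7 and 13.3 in the libraries labelled anti-CTLA4, and 8.34, 7.75 and 8.44 with CD4 depletion. Tfeb rose by 0.84 ± 0.18 (limma adjusted p = 0.0145), and its change of -0.49 with depletion did not pass (limma adjusted p = 0.0586). Tfe3 was at 18.1 and 17.3, then 23.0 and 32.5, then 17.6, 18.4 and 18.9 FPKM, rose by 0.60 and fell by 0.56 (limma adjusted p = 0.0392 and 0.0448). These proteins are regulated largely by their location in the cell, which RNA does not show.

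Their binding core was looked for in promoters, 250 bases before to 50 after each start, taken from RefSeq (GRCm38.p6). Windows were found for 38 of the 43 genes. The sequences are shown because these factors are known to bind TCACGTGA, the core of the shared lysosomal element. It reads the same on both strands and contains CACGTG, so its matches count under both motifs. Of the 38 genes, 6 held it (15.8%, against 1.12% of 27025 genes with a window), and 13 held CACGTG (34.2% against 8.09%). The longer 10-base CLEAR consensus was found in 0 of 38 (0.37% of all genes), and GAGGAAGT, a PU.1-type core searched on both strands, in 4 (10.5% against 3.69%). The stretches below run 5′ to 3′ on the gene's strand, with matches to TCACGTGA, or for Lamp1 to CACGTG, in capitals. They are at chr7:142387879-142387966 (Ctsd, minus strand), chr2:164833720-164833784 (Ctsa, plus), chr8:3500433-3500518 (Mcoln1, plus), chr8:105566061-105566108 (Atp6v0d1, minus), chr16:44139344-44139431 (Atp6v1a, minus), chrX:134601153-134601255 (Gla, minus) and chr8:13159060-13159160 (Lamp1, plus).
Ctsd: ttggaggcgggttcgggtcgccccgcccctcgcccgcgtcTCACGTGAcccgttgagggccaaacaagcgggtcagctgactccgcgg
Ctsa: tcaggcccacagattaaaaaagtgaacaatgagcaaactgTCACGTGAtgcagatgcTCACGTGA
Mcoln1: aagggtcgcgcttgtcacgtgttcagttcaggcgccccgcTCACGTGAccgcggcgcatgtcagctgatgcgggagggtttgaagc
Atp6v0d1: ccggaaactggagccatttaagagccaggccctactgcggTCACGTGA
Atp6v1a: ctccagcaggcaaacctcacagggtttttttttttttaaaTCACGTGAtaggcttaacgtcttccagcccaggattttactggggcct
Gla: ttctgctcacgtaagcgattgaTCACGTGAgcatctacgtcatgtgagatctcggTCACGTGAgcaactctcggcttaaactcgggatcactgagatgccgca
Lamp1: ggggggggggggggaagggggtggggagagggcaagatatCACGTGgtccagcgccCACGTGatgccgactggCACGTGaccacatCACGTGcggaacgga

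The changes are given for genes with and without the core. Of the 6 with TCACGTGA, 2 (Ctsa and Ctsd) rose in the libraries labelled anti-CTLA4, against 21 of 32 without it, and the median log2 changes were 0.21 and 0.83. With CD4 depletion the medians were -0.10 and -0.65, with 2 of 6 and 18 of 32 lower. For CACGTG, 5 of 13 genes with it and 18 of 25 without it were higher, with medians of 0.59 and 0.84. A match is a description of these letters and shows no binding. Lamp1, with 4 CACGTG matches, had the values given above and passed in neither comparison.

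CD4 depletion with anti-CTLA4 and IgG were close for the lysosomal genes. By limma, 0 of 43 passed, as did 0.0% of all tested genes. At an unadjusted p below 0.05 there was 1 of 43, against 851 of 13028 genes. The median log2 change was 0.17, with a range of -0.30 to 0.79, against -0.04 over all tested genes, and libraries did not overlap for 12 of 43 (8 higher, 4 lower) against 27.2% of all tested genes (11.0% and 16.2%). The 1 gene was Tcirg1, higher by 0.79 with a 95% interval of 0.15 to 1.42 (limma adjusted p = 0.71). Cd68 had a change of 0.49 (interval -0.03 to 1.01). Gusb, beta-glucuronidase, named after its values were seen, had a change of 0.55 (interval -0.08 to 1.17). Gusb was at 50.4 and 62.7 FPKM in IgG and 112, 61.2 and 82.1 with depletion, highest in replicate 1. These intervals leave room for changes of the size seen in the other comparisons for some genes, so equal levels were not shown.

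Other genes of the pathway followed in part, and their counts are to be read against the shares of all tested genes, 9.29% higher and 28.8% lower against IgG and 22.8% higher and 6.59% lower with CD4 depletion. Of 26 further lysosomal hydrolases and cofactors, 10 rose and 1 fell in the libraries labelled anti-CTLA4, and 8 were lower and 1 higher with CD4 depletion. Dnase2a, the acid DNase, was at 15.2 and 14.5, then 34.3 and 36.1, then 18.4, 18.5 and 20.2 FPKM, and changed by 1.19 and -0.86 (limma adjusted p = 0.00936 and 0.0123). Of 20 further membrane proteins and transporters, 6 were higher and 1 lower, then 5 lower and 1 higher. Slc15a4, a lysosomal histidine and peptide transporter, was at 16.4 and 15.3, then 34.7 and 42.5, then 18.8, 19.5 and 21.4 FPKM and changed by 1.23 and -0.92 (limma adjusted p = 0.00936 and 0.0126).

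Of 12 further pump subunits, 2 were higher and 1 lower against IgG, and 1 was lower and 0 higher with depletion. Atp6v0b, another ring subunit, rose by 0.77 and fell by 0.63 (limma adjusted p = 0.0168 and 0.0286). Of 11 genes that tag hydrolases with mannose 6-phosphate and sort them, 2 were higher and 3 lower, then 2 higher and 2 lower. Nagpa, the enzyme that uncovers the tag, rose by 0.92 and fell by 0.70 (limma adjusted p = 0.00936 and 0.014). Of 5 cathepsin inhibitors, 1 was higher and 1 lower against IgG, and 1 was higher with depletion. Cst6, cystatin E/M, was at 4.85 and 1.84 FPKM in IgG, 0.716 and 0.129 in the libraries labelled anti-CTLA4, and 2.25, 3.67 and 5.91 with depletion, near the lowest levels tested. It fell by 1.55 and then rose by 1.76 (limma adjusted p = 0.034 and 0.0237). At these levels the size depends on the pseudocount, and with 0.1 the changes were -2.84 and 3.12. The fall was not called with no filter or with quantile normalization (limma adjusted p = 0.0743 and 0.0579), nor the rise with no filter (limma adjusted p = 0.0553). The inhibitor called higher was Cst7, cystatin F, named after its values were seen. It was at 5.65 and 27.99, then 173 and 60.5, then 61.6, 15.6 and 22.8 FPKM. Cst7 rose by 2.90 (limma adjusted p = 0.0352), a call lost with no filter (limma adjusted p = 0.0779), and its change of -1.83 with depletion did not pass (limma adjusted p = 0.113). Without depletion replicate 1 the latter was -2.38 and passed (limma adjusted p = 0.035). Without depletion replicate 2 or 3 it was -1.42 or -1.68 and did not pass (limma adjusted p = 0.258 and 0.229). The rise also lost its call without depletion replicate 3 and with a replicate block (limma adjusted p = 0.0543 and 0.083). It was 1.83 and 3.96 without IgG replicate 1 or 2, and 2.15 and 3.64 without labelled anti-CTLA4 replicate 1 or 2. Of 15 relatives of Tfeb and nutrient sensors at the lysosome, 3 were higher and 3 lower against IgG, then 2 higher and 3 lower with depletion. Rheb, the GTPase that activates mTORC1, was at 68.5 and 60.9, then 39.2 and 33.7, then 59.7, 63.6 and 62.0 FPKM. It fell by 0.81 and rose by 0.75 (limma adjusted p = 0.0115 and 0.0149).

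The counts changed when 1 library was left out. Leaving out an IgG or a labelled anti-CTLA4 library leaves that group with 1 library, whose spread has to be borrowed from the remaining groups, so a lost call there says little about the gene. How many calls remained in these fits depended on which library was removed, so only effect sizes are given for them. Removing an IgG library leaves both groups of the depletion comparison whole. Fewer genes were called lower there too, among the 43 and among all tested genes. The 43-gene median against IgG was 0.77 after removing labelled anti-CTLA4 replicate 1 and 0.87 after removing replicate 2. Removing either IgG library left this median at 0.8. For depletion, the medians were -0.67 and -0.6 after removing labelled anti-CTLA4 replicate 1 or 2, and -0.63 after removing either IgG library. When all libraries were kept, 22 of 43 genes fell with depletion (6.59% of all tested genes lower). In fits that kept 2 libraries in each group, 3 fell without depletion replicate 3 and 6 without depletion replicate 2 (1.91% and 3.12%), and 24 without depletion replicate 1, the library rich in monocyte markers (8.89%). The 43-gene medians ranged from 0.77 to 0.87 against IgG and from -0.67 to -0.55 with depletion.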

How the data were processed

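RNA sequencing values of 7 libraries were analysed as the authors deposited them. Per the file headers, HOMER made the deposited FPKM table from reads on exons of mm10, counting both strands and condensing each gene to 1 row. Per the submitters' processing notes, STAR and DESeq2 were also named. Versions are not given in the sources used here. The header's command names 40 libraries, 33 of which have no column.

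The model was fitted in limma 3.58.1 (R 4.3.3) to log2(FPKM + 1). Every change is on this scale, on which low genes appear to change less than they do. All 7 libraries entered 1 fit with a mean-variance trend, over 13028 genes that reached 1 FPKM in 2 or more libraries. Tests were two-sided with Benjamini-Hochberg adjustment over all tested genes and a threshold of 0.05. Exact permutation is too coarse for groups of 2 and 3 to reach it. The tests were also run on simulated data with 200 of 13028 genes changed. At a log2 change of 1, 20% were recovered against IgG and 28% with CD4 depletion. At a log2 change of 2, it was 68% and 74%. A gene that did not pass can therefore have changed. Far more genes were called in the data than were changed there, so these rates need not hold for the data. Low values over transcripts of 200 to 800 nucleotides lay within 0.1 of whole reads in 100% of cases, which gave the depth. No count test was run.

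The members and gene lists were chosen with earlier results of these data known. Named genes were, per comparison and direction, up to 8 called members of smallest p with non-overlapping libraries and a mean of at least 5 FPKM, and a fixed panel. The rule allowed up to 3 called genes from each other pathway list. To keep the account on the members, the 1 of smallest p was named, a number set after the values were seen. In the comparison of CD4 depletion with IgG, values are given for 3 genes. Of the members, 10 overlap another row of the table. Alternatives changed the pseudocount, the filter, the scaling, the libraries fitted and a replicate block.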

Additional observations from a re-analysis of the deposited data

How the results depend on the processing

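Over 79 gene-level results and 1261 values under alternatives, 823 kept direction and side of the threshold, 321 lost the threshold, 27 gained it and 90 changed sign. Against IgG, 26 genes were higher; there were 16 with no filter, 0 with scaling to the homeostatic microglia list, 0 with 9 lower with scaling to the pan-myeloid list, and 0 to 28 when 1 library was left out. The median of 0.80 was 1.17 with median-of-ratios scaling, -0.04 with the homeostatic list, -0.35 with the pan-myeloid list, and 0.77 to 0.87 with 1 library left out. With CD4 depletion against the libraries labelled anti-CTLA4, 22 were lower (6.59% of all tested genes). There were 9 with no filter and 10 with only the groups compared. With the homeostatic list 0 were lower and 1 higher (0.752% and 50.3%), and with the pan-myeloid list 0 and 6 (0.683% and 61.5%). In fits that left out 1 depletion library, 3 to 24 were lower (1.91% to 8.89%). Shares of all tested genes are not given for no filter and only the groups compared, so those counts cannot be set against genes at large. The median of -0.63 was -0.94 with median-of-ratios scaling, 0.31 with the homeostatic list, 0.19 with the pan-myeloid list, and -0.67 to -0.55 with 1 library left out. For CD4 depletion against IgG 0 genes passed in each alternative run, and the median of 0.17 was -0.16 with the pan-myeloid list and 0.14 to 0.23 with 1 library left out. Calls against IgG lost with quantile normalization were those of Lgmn, Ctsb, Ctsd, Ctss, Ctsz, Grn, Psap and Laptm5 among the named members, and with no filter those of Ctsb, Ctsd, Ctss, Npc2, Psap, Laptm5 and Tfe3. With CD4 depletion, quantile normalization lost Lgmn, Psap, Laptm5, Ctsd, Ctss, Ctsz, Grn and Cd68, and no filter lost these and Lipa and Tfe3. Fits that leave a group with 1 library assume that it varies like the others. The cause of these changes was not tested.

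With a replicate block, 12 genes were higher against IgG and 0 were lower with CD4 depletion. Shares of all tested genes are not given for the block fits, so their counts cannot be set against genes at large. The labels do not say whether equal numbers pair the samples. Correlations of same-numbered deviations were -0.125 for IgG and labelled anti-CTLA4, and 0.078 and 0.123 for labelled anti-CTLA4 and depletion. For IgG and depletion they were -0.181 and -0.205. In a group of 2 libraries the deviations mirror each other, so these few values cannot decide whether the samples are paired. Chosen after seeing the data, crossing the numbers of the IgG and labelled anti-CTLA4 libraries gave 25 genes higher, against 17 with a replicate block of these 2 groups.

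With median-of-ratios scaling, the log2 changes against IgG that changed sign were Smpd1 0.12 and Atp6v0d1 0.05. With median-of-ratios scaling, the log2 changes with CD4 depletion that changed sign were Cd63 -0.05, Atp6v0c -0.31 and Atp6v0d1 -0.13. With quantile normalization, the log2 change against IgG that changed sign was Cd63 -0.07. With quantile normalization, the log2 changes with CD4 depletion that changed sign were Atp6v0c -0.15 and Atp6v0d1 -0.01. With scaling to the homeostatic microglia list, the log2 changes against IgG that changed sign were Ppt1 -0.04, Tpp1 -0.07, Lipa -0.05, Lamp1 -0.27, Lamp2 -0.34, Cd63 -0.80, Mcoln1 -0.75, Atp6v0c -0.74, Atp6v1a -0.76, Tfe3 -0.23, Atp6v1b2 -0.85 and Atp6v0b -0.09. With scaling to the homeostatic microglia list, the log2 changes with CD4 depletion that changed sign were Ctsa 0.04, Ppt1 0.31, Laptm5 0.06, Ctsl 0.41, Tpp1 0.35, Lipa 0.39, Npc2 0.31, Lamp1 0.40, Lamp2 0.58, Cd68 0.09, Mcoln1 0.87, Tcirg1 0.22, Atp6v1a 0.75, Tfeb 0.39, Tfe3 0.37, Smpd1 0.86, Atp6v1b2 0.93, Dnase2a 0.08, Atp6v0b 0.33, Slc15a4 0.02 and Nagpa 0.24. With scaling to the pan-myeloid list, the log2 changes against IgG that changed sign were Hexa -0.15, Ppt1 -0.35, Ctsl -0.25, Tpp1 -0.38, Lipa -0.36, Npc2 -0.24, Lamp1 -0.59, Lamp2 -0.65, Laptm5 -0.08, Cd63 -1.11, Mcoln1 -1.06, Atp6v0c -1.05, Atp6v1a -1.07, Tfeb -0.22, Tfe3 -0.53, Atp6v1b2 -1.16, Atp6v0b -0.40 and Nagpa -0.23. With scaling to the pan-myeloid list, the log2 changes with CD4 depletion that changed sign were Ppt1 0.19, Ctsl 0.29, Tpp1 0.23, Lipa 0.27, Npc2 0.19, Lamp1 0.28, Lamp2 0.46, Mcoln1 0.76, Tcirg1 0.10, Atp6v1a 0.64, Tfeb 0.27, Tfe3 0.25, Smpd1 0.75, Atp6v1b2 0.82, Atp6v0b 0.22 and Nagpa 0.12. With 1 library left out, the log2 changes against IgG that changed sign in some of these fits were Cd63 -0.41 to 0.54, Atp6v0c -0.10 to 0.32, Atp6v1a -0.22 to 0.31 and Atp6v1b2 -0.12 to 0.13. With 1 library left out, the log2 changes with CD4 depletion that changed sign in some of these fits were Atp6v1a -0.42 to 0.11, Atp6v1b2 -0.14 to 0.11, Cd63 -0.21 to 0.74, Atp6v0c -0.21 to 0.21, Smpd1 -0.16 to 0.11 and Mcoln1 -0.21 to 0.06.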
